A study of Mus musculus with 2 samples.

Results

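The 10 genes described here make, break down, bind or respond to retinoic acid: Rdh10, Aldh1a1, Aldh1a2, Aldh1a3, Dhrs3, Cyp26a1, Cyp26b1, Crabp1, Crabp2 and Rarb. They were chosen by gene name among the non-control probes of 2 oligonucleotide arrays, which gave 11 of 39429 probes and 10 of the 21097 genes tested. Rarb had 2 probes and each of the other 9 genes had 1. All 11 probes were well above background in both channels of both arrays, so no member was lost to the filter on dim probes. The RNA came from ureters of male NMRI embryos at E13.5, before the ureteric mesenchyme has formed contractile smooth muscle. In Tbx2-GOF embryos the T-box repressor gene Tbx2 is meant to be switched on by cre (GOF, gain of function); they had the genotype Tbx18(cre/+);Hprt(Tbx2/Y), and control embryos had Tbx18(+/+);Hprt(Tbx2/Y). Both groups thus carried the Tbx2 allele inserted at Hprt, and cre and the loss of 1 normal Tbx18 allele were found only in Tbx2-GOF embryos. An effect of TBX2 therefore cannot be told apart from one of cre or of the Tbx18 allele. Cre is driven by Tbx18, a gene of the ureteric mesenchyme, whereas whole ureters were sampled. The single Tbx2 probe gave log2 ratios of 0.04 and 0.56 for Tbx2-GOF over control (adjusted p = 0.711); no source says whether it lies in the stretch that the inserted allele carries, so it does not check the labels. Tbx18 gave -0.31 and -0.59 (adjusted p = 0.266). Each array held 1 Tbx2-GOF and 1 control extract, with the dyes swapped between the arrays, and whether the embryos behind the 2 arrays differed is not stated. The p-values therefore rest on the variation between 2 arrays, part or all of which may be technical.

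Retinoic acid is made from vitamin A in successive oxidations: retinol dehydrogenases such as RDH10 turn retinol into retinal, and the retinaldehyde dehydrogenases ALDH1A1, ALDH1A2 and ALDH1A3 turn retinal into retinoic acid. DHRS3 reduces retinal back to retinol, the CYP26 enzymes oxidise retinoic acid to inactive products, and CRABP proteins carry it in the cytoplasm. The acid acts through nuclear receptors, one of which, RARB, is itself encoded by a gene that retinoic acid induces. In the urinary tract, retinoic acid made in the stroma is known to support expression of the receptor gene Ret in the ureteric bud.

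The genes that the results turn on were each read by a single 60-base probe. The first 30 bases of each, from the scanner files, are given to identify the probes.
Cyp26b1: gttcgtgtgtctcgttgtggtagcattaat
Cyp26a1: atcttcactaacaaggaggaatttaatccc
Aldh1a2: aaccagctagctcccttcaacccacagtat
Aldh1a3: ggggattttgatcttaagttcagattgtgt
On mm9 these probes lie at chr6:84521952-84522011 (minus strand), chr19:37775566-37775625 (plus strand), chr9:71143931-71143990 (plus strand) and chr7:73535785-73535844 (minus strand), in that order. Exon and UTR positions were not determined, as no mm9 annotation was used here. No pair among the 11 member probes shared a run of more than 9 bases.

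Of the 2 enzymes that degrade retinoic acid, Cyp26b1 rose 1.91-fold, and Cyp26a1 was 1.52-fold lower without passing the test. The synthesis genes Aldh1a2 and Aldh1a3 were 1.64-fold and 1.62-fold higher, also without passing it. The receptor gene Rarb had a mean log2 ratio of -0.04. Of the 10 genes, 1 rose (Cyp26b1), 0 fell and 9 did not pass the limma test (adjusted p under 0.05). Over all genes 0.64% were called, 0.36% upward and 0.28% downward. At an unadjusted p under 0.05 there were 5 of the 10 (Cyp26b1, Aldh1a3, Aldh1a2, Cyp26a1 and Crabp1), against 9.34% of all genes. The median log2 ratio of Tbx2-GOF over control was 0.06 over the 10 genes and 0.00 over all genes. Of the 10, 6 were above 0 and 4 below. The ratio had the same sign on both arrays for 9 of the 10 genes, against 51.2% of all genes. Cyp26b1 and Aldh1a3 were at least 1.5-fold higher on both arrays; 0.825% of all genes were, and 1.37% passed that fold in either direction. The Tbx2-GOF intensities lay wholly above the control ones for 4 genes (Cyp26b1, Aldh1a2, Aldh1a3 and Dhrs3) and wholly below for 2 (Cyp26a1 and Crabp1), against 18.2% and 16.3% of all genes. The 10 genes were proposed with earlier results of these data known, so these shares are a description of the members.

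**Figure D1:**
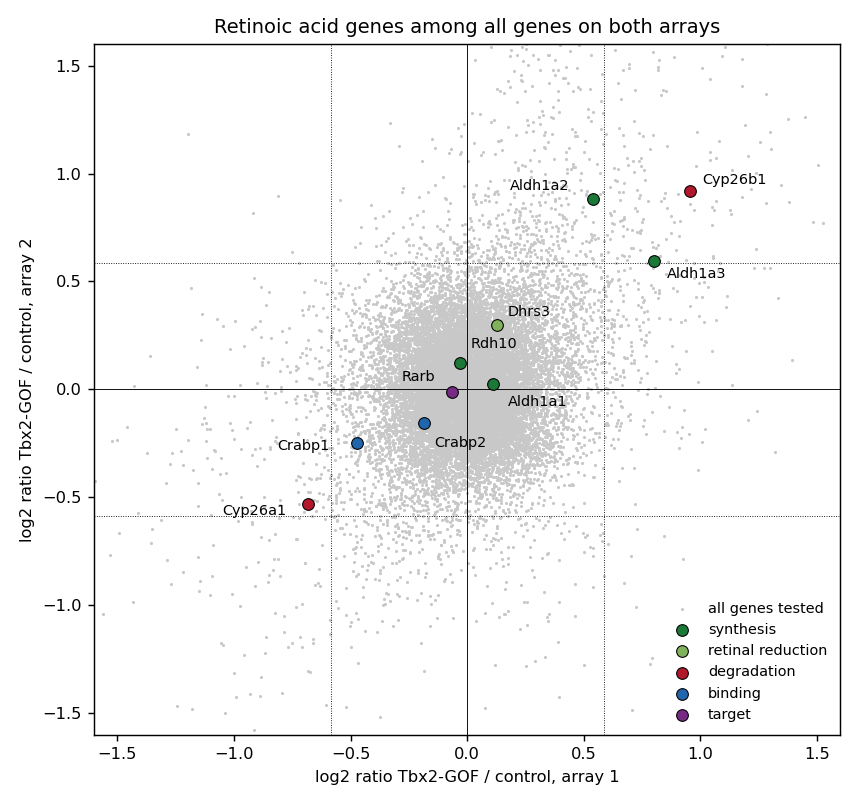
Log2 ratio of Tbx2-GOF over control on array 1 (horizontal axis) and array 2 (vertical axis) for all genes tested (grey) and the 10 retinoic acid genes, coloured by role. Dotted lines mark 1.5-fold, and 120 genes lie outside the plotted range. Cyp26b1 and Aldh1a3 lie beyond 1.5-fold upward on both axes and Cyp26a1 lies in the opposite quadrant.

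Among the degrading enzymes, Cyp26b1, which clears retinoic acid in many embryonic tissues including the foetal testis, had normalized intensities of 2918 and 2925 in Tbx2-GOF ureters on arrays 1 and 2, against 1506 and 1546 in control ureters. Both Tbx2-GOF values lay above both control values, a separation that 34.5% of all genes showed in one direction or the other. Such intensities compare the same probe between extracts and are not levels that can be set against another gene's. Cyp26b1 rose 1.91-fold, with a log2 ratio of 0.94 ± 0.02 (SD, n = 2; limma's 95% interval 0.64 to 1.24; adjusted p = 0.0379). On data simulated with this design more false calls were made in most runs than the adjusted p states, so a value this close to 0.05 is a weak call. The arrays gave 0.95 and 0.92, and 9.69% of all genes had an SD this small or smaller. Only 0.611% of genes had a higher ratio. Of the 12 alternative settings 6 leave the ratio as it is, since they change the filter or the test; the other 6 gave 0.94 to 0.96. In 4 of the 12 the adjusted p missed the threshold. It was 0.0956 with the separate-channel model, 0.158 with the series value table, 0.165 with the software's processed signals and 0.452 with median centring.

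Cyp26a1, the other degrading enzyme measured and a gene that retinoic acid induces strongly in many cells, gave 391 and 312 in Tbx2-GOF ureters and 626 and 451 in control ureters. Both Tbx2-GOF values were the lower ones, without overlap. Its log2 ratio was -0.61 ± 0.11 (SD, n = 2), with -0.68 and -0.53 on the arrays, and it did not pass the test (adjusted p = 0.122; interval -0.91 to -0.30). Only 1.09% of genes had a lower ratio. Its ratio ranged from -0.79 to -0.58 over the alternative settings. The ratio of Cyp26b1 exceeded that of Cyp26a1 by 1.63 and 1.45 on the log2 scale on arrays 1 and 2, a difference within each array that was not tested further. The third family member, Cyp26c1, was not well above background.

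**Figure D2:**
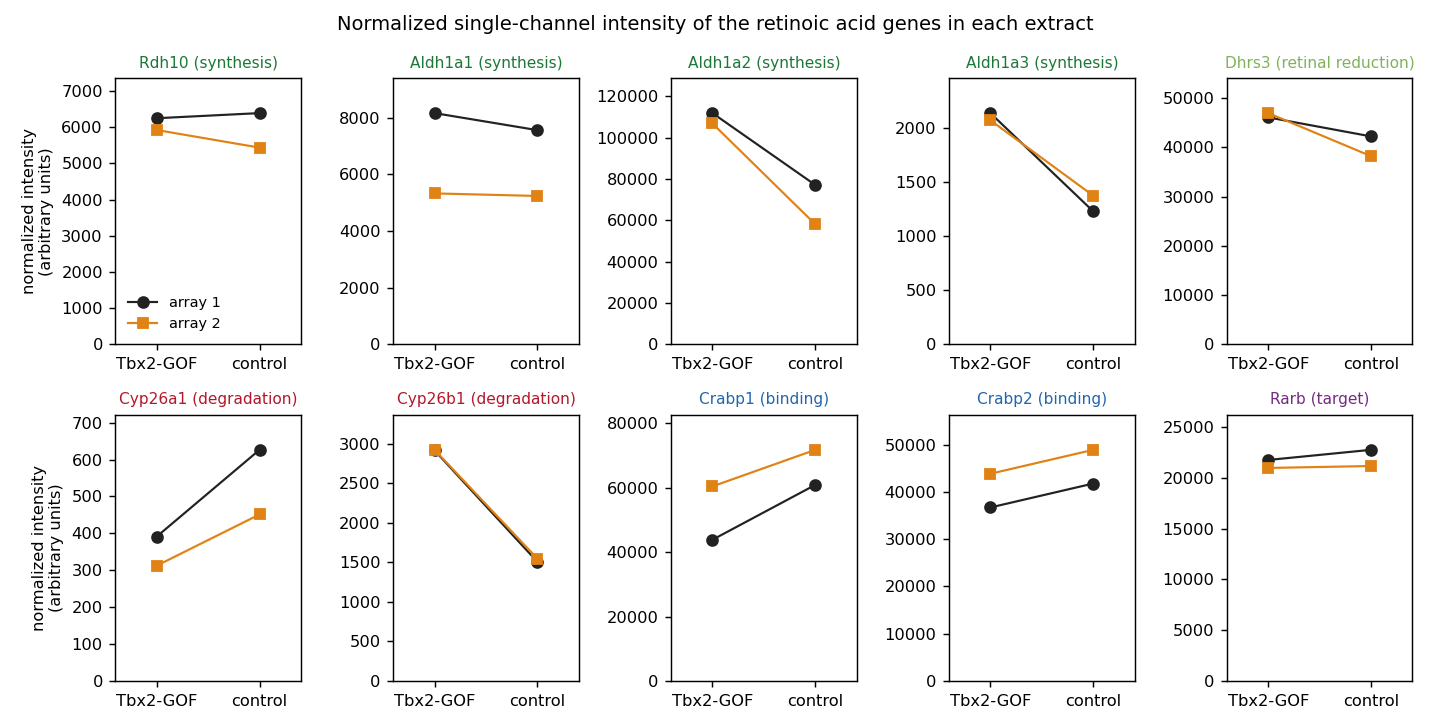
Normalized single-channel intensity (vertical axis, arbitrary units, from 0) of each retinoic acid gene in the Tbx2-GOF and the control extract of array 1 (circles) and array 2 (squares), with a line joining the extracts of 1 array. The lines fall steeply to the control for Cyp26b1, Aldh1a2 and Aldh1a3, climb to it for Cyp26a1 and Crabp1, and run nearly level for Rarb, Rdh10 and Aldh1a1.

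Among the synthesis genes, Rdh10 and Aldh1a1 lay near 0, while Aldh1a2 and Aldh1a3 were higher on both arrays. Rdh10, which makes retinal, had 6248 and 5923 in Tbx2-GOF ureters and 6390 and 5435 in control ureters, so the groups overlapped. It was the 1 member with opposite signs on the arrays, at -0.03 and 0.12 (mean 0.05 ± 0.11; interval -0.26 to 0.35; adjusted p = 0.9998). Aldh1a1 likewise overlapped, with 8159 and 5324 in Tbx2-GOF ureters and 7556 and 5233 in control ureters. The arrays differed more from each other than the groups did, and the log2 ratio was 0.07 ± 0.06 (interval -0.23 to 0.37; adjusted p = 0.9998).

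Aldh1a2, the main retinaldehyde dehydrogenase of embryonic mesenchyme and of mesothelium, had 111851 and 106834 in Tbx2-GOF ureters, against 77024 and 57968 in control ureters. The groups did not overlap, and the control extracts were further apart than the Tbx2-GOF extracts. The log2 ratio was 0.71 ± 0.24, or 1.64-fold, with 0.54 on array 1 and 0.88 on array 2. That was the widest spread between arrays among the 10 genes, and the gene did not pass the test (adjusted p = 0.101; interval 0.38 to 1.05).

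Aldh1a3 had 2133 and 2067 in Tbx2-GOF ureters and 1225 and 1370 in control ureters, again without overlap. Its log2 ratio was 0.70 ± 0.15, or 1.62-fold, with 0.80 and 0.59 on the arrays (adjusted p = 0.0858; interval 0.38 to 1.01). Array 2 lay just past the 1.5-fold line of 0.58. Aldh1a2 and Aldh1a3 were thus alike in mean ratio but leaned to different arrays. Their calls depended on the setting: with scaling between arrays both passed (adjusted p = 0.0427 and 0.0471), and without the filter on dim probes Aldh1a3 did (0.0469). Within the arrays, the ratio of Aldh1a2 exceeded that of Aldh1a1 by 0.43 and 0.86, and that of Aldh1a3 exceeded it by 0.69 and 0.57.

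Dhrs3, which opposes synthesis by returning retinal to retinol and is itself induced by retinoic acid, had 46088 and 46960 in Tbx2-GOF ureters and 42216 and 38191 in control ureters. The Tbx2-GOF values were the higher ones by a small margin. Its log2 ratio was 0.21 ± 0.12, with 0.13 and 0.30 on the arrays, and it did not pass the test (adjusted p = 0.807; interval -0.10 to 0.52).

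Both binding proteins were lower on both arrays, neither past the test. Crabp1, a carrier abundant in embryonic mesenchyme and in some neurons, had 43832 and 60401 in Tbx2-GOF ureters and 60885 and 71763 in control ureters, which do not overlap by a narrow margin. Its log2 ratio was -0.36 ± 0.16, with -0.47 and -0.25 on the arrays (adjusted p = 0.414; interval -0.68 to -0.05). Crabp2, which hands retinoic acid to nuclear receptors, had 36712 and 43851 in Tbx2-GOF ureters and 41786 and 48921 in control ureters. These groups overlapped because the 2 arrays differed in level, while the ratio was nearly the same on each, at -0.19 and -0.16 (mean -0.17 ± 0.02; adjusted p = 0.883; interval -0.47 to 0.13).

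Rarb, a receptor gene widely used as a readout of retinoic acid signalling, was measured by 2 probes. Its brighter probe (mm9 chr14:17263367-17263426) gave 21769 and 20981 in Tbx2-GOF ureters and 22770 and 21172 in control ureters, and the groups overlapped. The log2 ratio was -0.04 ± 0.04 (interval -0.34 to 0.26; adjusted p = 0.9998). The dimmer probe (chr14:17264648-17264707) gave 5868 and 6240 in Tbx2-GOF ureters and 6544 and 5621 in control ureters. Its ratios were -0.16 and 0.15, of opposite sign, with a mean of 0.00 ± 0.22. On both probes the mean ratio was within 0.04 of 0. The ratio of Cyp26a1 lay below that of the brighter Rarb probe by 0.62 on array 1 and 0.52 on array 2, and that of Cyp26b1 lay above it by 1.02 and 0.93.

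The promoters of Cyp26b1, Cyp26a1 and Rarb are shown because they differ in a match to DR5. DR5 is a direct repeat of receptor half-sites spaced by 5 bases, an element through which retinoic acid receptors are known to act. Repeats with other spacings and sites further from the start were not searched, so a gene without a match may still have such elements. The letters run over the 250 bases before the start site, from RefSeq on GRCm38.p6, with the DR5 match in capitals. The promoters of Cyp26a1 and Rarb were added because they hold this match.
Cyp26b1: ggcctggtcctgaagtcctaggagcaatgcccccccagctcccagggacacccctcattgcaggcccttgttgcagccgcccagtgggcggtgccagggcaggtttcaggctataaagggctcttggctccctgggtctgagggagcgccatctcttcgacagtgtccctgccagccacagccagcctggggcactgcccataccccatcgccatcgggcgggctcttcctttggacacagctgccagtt
Cyp26a1: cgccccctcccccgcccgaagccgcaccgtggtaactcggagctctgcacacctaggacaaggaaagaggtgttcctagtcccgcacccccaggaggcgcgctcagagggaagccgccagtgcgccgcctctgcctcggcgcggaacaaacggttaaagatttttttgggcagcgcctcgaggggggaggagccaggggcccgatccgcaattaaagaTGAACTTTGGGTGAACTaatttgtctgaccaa
Rarb: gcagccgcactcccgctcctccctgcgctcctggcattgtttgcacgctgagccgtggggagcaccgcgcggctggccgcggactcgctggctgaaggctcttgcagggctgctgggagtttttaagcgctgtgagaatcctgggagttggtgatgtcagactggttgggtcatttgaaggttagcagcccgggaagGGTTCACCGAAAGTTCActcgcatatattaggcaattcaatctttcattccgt
These stretches lie at chr6:84593811-84594060 (minus strand), chr19:37697558-37697807 (plus strand) and chr14:16575477-16575726 (minus strand). The search covered both strands of windows that reach from 250 bases before to 50 after the start, and 7 of the 10 genes had such windows, 10 in all. DR5 was found in the Rarb window, 53 to 37 bases before the start, and in the Cyp26a1 window on the opposite strand, 32 to 16 bases before it. The match occurs in 32 of 32851 windows, or 0.0974%. The half-site AGTTCA was found in the same 2 windows, inside the DR5 matches, against 13.99% of all windows, and AGGTCA in 0 of the members' windows, against 16.3%. The T-box half-site GGTGTGA occurred in the Aldh1a1 window, on the opposite strand 192 to 186 bases before the start, against 3.98% of all windows. The 2 genes with a DR5 match had mean log2 ratios of -0.61 and -0.04, and a match is only a run of letters.

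Among other genes of the retinoid pathway, 1 passed the test. Of 55 such genes, 47 were tested and 8, Cyp26c1 among them, had no probe well above background in either group on both arrays. Of the 47, 0 rose, 1 fell and 46 did not pass (10 had an unadjusted p under 0.05), and the median log2 ratio was -0.06. The 1 that fell was Ttr, transthyretin, which carries the retinol-binding protein in plasma. Its intensity was 103 and 131 in Tbx2-GOF ureters, above background on 1 of 2 arrays, and 191 and 330 in control ureters. It fell by 1.11 on the log2 scale (SD 0.32, adjusted p = 0.0379), and by 1.59 with offset 0. The filter kept it only through the control ureters, where it was higher, and with the strict filter it was not tested and 0 pathway genes were called.

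By role, the 9 genes of retinoid uptake and storage had a median of -0.06, with Rbp4, the plasma carrier of retinol, at -0.67 (adjusted p = 0.187) and Stra6, its membrane receptor, at 0.30 (0.562). The 11 other retinol and retinal oxidoreductases had a median of -0.14 and ranged from -0.36 to 0.21. The 6 carriers and nuclear receptors, which include Rara, Rarg and the RXR partners, lay between -0.25 (Rarg) and 0.24 (Fabp5), with 0 past the test and 0 at an unadjusted p under 0.05. The 6 receptor coregulators had a median of 0.09, led by Nrip1 at 0.40 (0.371).

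Among 14 response genes, chosen as genes known to be induced by retinoic acid in some tissue, the median was -0.09 and 0 passed the test. Ret, the receptor gene for GDNF in the ureteric bud and in peripheral neurons, had 1864 and 1854 in Tbx2-GOF ureters and 1223 and 499 in control ureters. The control extracts lay far apart and the Tbx2-GOF extracts close together, and the log2 ratios were 0.61 and 1.89 (adjusted p = 0.120; 0.0331 with scaling between arrays). Ret was the 1 gene of the 47 at least 1.5-fold higher on both arrays, and Ttr the 1 that was lower. Zfp703, a transcriptional repressor gene, lay just short of that line at -0.57 and -0.58 (adjusted p = 0.132). Hoxb4 gave 0.43 on both arrays, and Hoxb5 gave 0.28 and 0.45 (adjusted p = 0.256 and 0.385). Of the 14 response genes, 4 had an unadjusted p under 0.05: Ret, Hoxb4 and Hoxb5 (higher) and Zfp703 (lower).

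**Figure D3:**
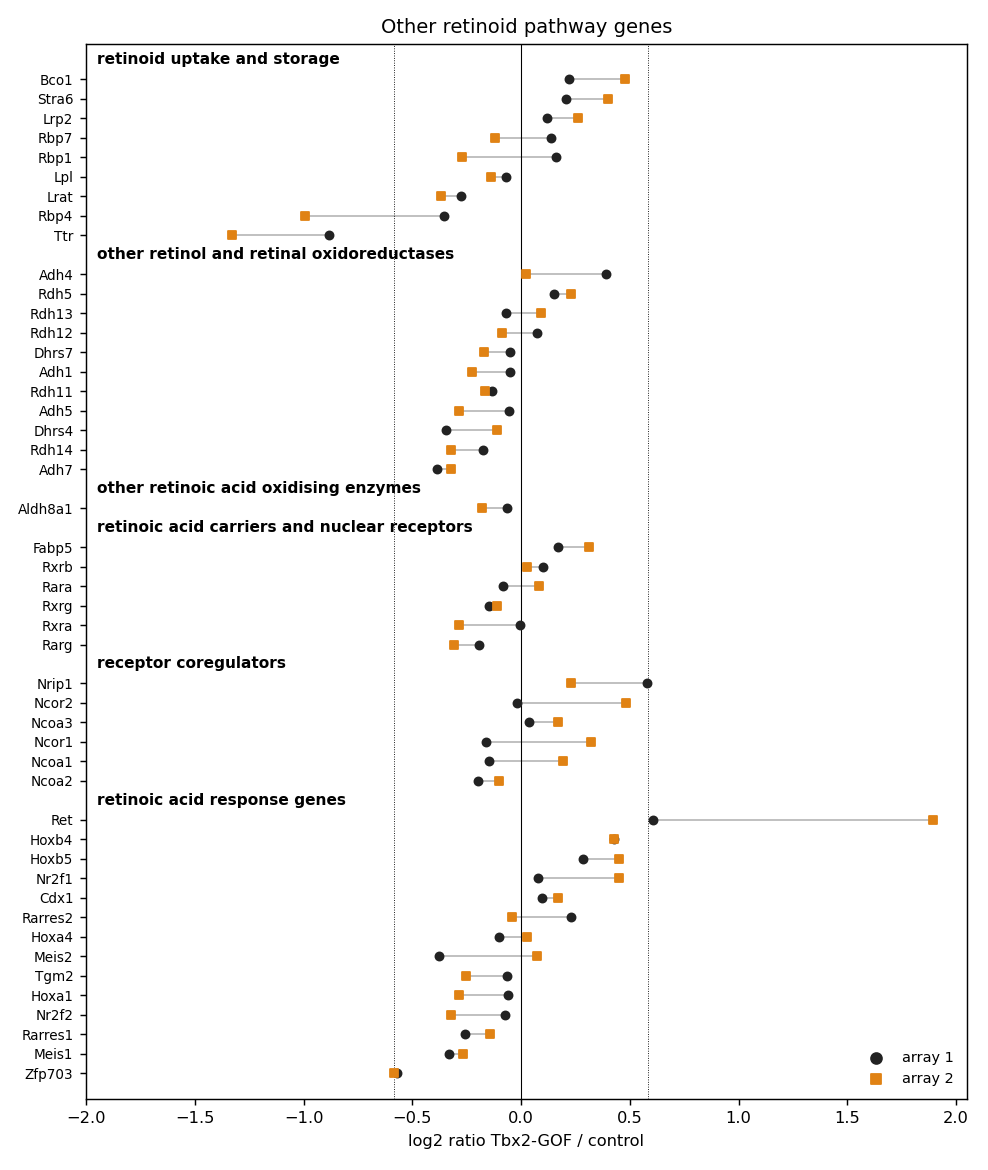
Log2 ratio of Tbx2-GOF over control (horizontal axis) on array 1 (circles) and array 2 (squares) for the 47 other retinoid pathway genes tested, grouped by role and sorted by mean within each group. Dotted lines mark 1.5-fold. Ttr at the low end and Ret at the high end are the genes past it on both arrays.

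Markers of the labelled tissue were present, and genes that mark neighbouring tissues lay on both sides of 0. The lists themselves were not tested. All 8 genes of the ureteric mesenchyme list and all 12 of the ureteric epithelium list were tested, with medians of -0.12 and 0.02. Of their genes 0 and 1 fell (Upk3a, a uroplakin, whose intensities overlapped between the groups). Upk2, another uroplakin, and Gata3 of the epithelium list were at least 1.5-fold higher on both arrays without passing the test. The mesothelium list, whose cells are known to express Aldh1a2, had 0 of 8 genes past the test and a median of -0.09. Its summed intensities were 23230 and 24995 in Tbx2-GOF ureters, against 23991 and 23742 in control ureters. Such sums weigh a list's brightest genes most, here Wt1 and Krt19, the latter also in the ureteric epithelium list. Lrrn4 (-0.76), Muc16 (-0.31), Upk3b (-0.25), Bnc1 (-0.15) and Krt19 (-0.03) lay below 0. Msln (0.20), Podxl (0.11) and Wt1 (0.09) lay above it. The renal stroma list, another known site of Aldh1a2, had 1 of 5 genes lower (Foxd1) and a median of -0.30, with sums of 174267 and 168474 against 210547 and 178347 in control ureters. In the gonad and Wolffian duct list, Amh and Dmrt1, which mark the foetal testis where Cyp26b1 is abundant, were not well above background. Dhh, Cyp17a1, Nr5a1, Gata4, Lhx1 and Sox9 were above background in both groups on both arrays. Lhx1 (1.07 and 0.55 on arrays 1 and 2, adjusted p = 0.0958) and Dhh (0.77 and -0.02) had the highest mean log2 ratios. The means of Sox9, Cyp17a1, Nr5a1 and Gata4 were 0.12, 0.06, 0.00 and -0.26. The 1 of 7 genes called was Lhx9 (lower). It was above background in Tbx2-GOF ureters on 1 of 2 arrays, so the filter kept it only through the control. The median of this list was 0.06, and the sums were 5775 and 5658 in Tbx2-GOF ureters, against 4603 and 6152 in control ureters. Of these sums Sox9, also in the ureteric mesenchyme list, gave 3335 and 3153, against 2477 and 3576 in control ureters. The nephron progenitor list had 2 of 8 genes higher (Six2 and Pax8) and a median of 0.29. Cited1 (0.57), Meox1 (0.37), Pax2 (0.21) and Eya1 (0.04) also lay above 0, and Osr1 (-0.22) and Sall1 (-0.46) below. Six2 gave 9801 and 7697 in Tbx2-GOF ureters, against 2648 and 2180 in control ureters, and the other 7 genes summed to 30786 and 30966, against 28401 and 29271 in control ureters.

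The adrenal cortex list had 2 of 8 genes higher (Akr1b7 and Mc2r) and a median of 0.09. Star had a mean log2 ratio of 0.18 and Cyp11a1 of -0.12, each with the same sign on both arrays. Nr0b1 (mean 0.18), Nr5a1 (0.00), Cyp11b1 (-0.03) and Hsd3b1 (-0.10) had opposite signs on the arrays. Akr1b7 gave 8448 and 6726 in Tbx2-GOF ureters, against 655 and 933 in control ureters. The other 7 genes summed to 1470 and 1370 in Tbx2-GOF ureters, against 1298 and 1240 in control ureters. Mc2r was above background in control ureters on 1 of 2 arrays, so the filter kept it only through the Tbx2-GOF ureters. The neuron list had 1 of 12 genes higher (Th) and medians of 0.45 and 1.74 on arrays 1 and 2, with sums of 179666 and 197612 against 132507 and 65221 in control ureters. In the neural crest and Schwann list 1 of 7 rose (median 0.82). In the skeletal muscle list 3 of 8 fell (medians of -2.13 and -1.03 on the arrays), and in the list of plasma protein genes, which holds Ttr, 5 of 7 fell (median -1.86), 3 of them among genes above background in both groups on both arrays. On arrays 1 and 2, Cyp26b1 gave 0.95 and 0.92 and Ret gave 0.61 and 1.89. The nephron progenitor list had medians of 0.25 and 0.28 on the arrays, beside those given for the neuron and muscle lists. The part of such tissues in the results above was not tested. In whole ureters, fewer cells of a type and less RNA per cell cannot be told apart.

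**Figure D4:**
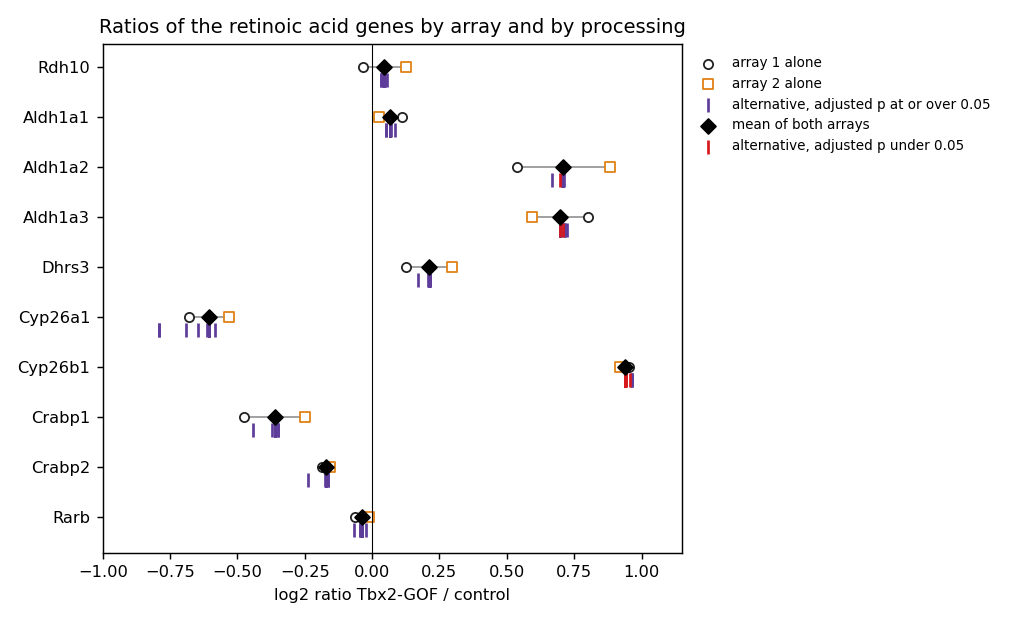
Log2 ratio of Tbx2-GOF over control (horizontal axis) of each retinoic acid gene as the mean of both arrays (diamonds), on array 1 alone (circles), on array 2 alone (squares) and under the 12 alternative settings with both arrays (ticks below each gene, red where the adjusted p was under 0.05); 6 of these settings leave the ratios as they are, apart from that of Rarb. No tick lies on the other side of 0 from its diamond, and Cyp26a1 has the widest range of ticks, from -0.79 to -0.58.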

How the data were processed

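Scans of both arrays were read by the Agilent software Feature Extraction, version 10.7.3.1 (source: the submitters' processing notes). Per the file headers, spot and background signals are raw intensity values. Processed signals were detrended and dye-normalized by the software, and its log10 ratio is red over green with software flags beside it, per the file headers. The authors' deposited table for the series holds signed fold values, treated as a score; its scale, centring and direction are not stated, and after being read as Tbx2-GOF over control 99.2% and 98.8% of its values matched the software's log10 ratio within 0.01, for probes above background in both channels. Its median was 1 in both columns.

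Log2 ratios were computed with limma 3.58.1 in R 4.3.3: normexp with offset 50, then loess within arrays (span 0.3, control and flagged spots at weight 0). The Tbx2-GOF extract was red on array 1 and green on array 2. Probes well above background in the Tbx2-GOF or the control channel on both arrays were kept, 26471 in all, and the brightest kept probe stood for a gene. lmFit and eBayes tested 21097 genes, two-sided, with Benjamini-Hochberg adjustment at 0.05, 1 residual and 6.36 prior degrees of freedom; "rose" and "fell" are used only past that threshold. Single-channel intensities are those after loess and Aquantile and are open to dye bias. Symbols were updated by RefSeq accession (67.0% of probes). The number of arrays limits precision; no spot was saturated. The median SD between spots of probes spotted 10 times was 0.06 on each array.

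The named genes are all members, the other pathway genes past the test or 1.5-fold on both arrays, and marker lists by count. Examples in other roles (Rbp4, Stra6, Nrip1, Rarg, Fabp5, Zfp703, Hoxb4, Hoxb5) were chosen after their values were seen. Members and lists were chosen with earlier results of these data known. The fit was tested on simulated data of this design, with changed genes set at larger log2 ratios than any member showed. It found nearly all of those, but in most runs the share of false calls was above the level that the adjustment sets. Changes as small as those of the members were not simulated, so how often the test would miss them is not known.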

Additional observations from a re-analysis of the deposited data

How the results depend on the processing

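Of the 12 alternatives with both arrays, 6 could not move the ratios (apart from that of Rarb) and 2 others, processed signals and the series value table, gave the same ratios. Of 120 values for the 10 genes 61 moved, and 0 of these changed sign. The number of calls moved more. Limma called 0 genes, 0 upward and 0 downward, with median centring, the series value table and processed signals (1219, 2060 and 2055 at an unadjusted p under 0.05), and 4 (2 and 2) with the separate-channel model. It called 313 (197 and 116) with scaling between arrays, 276 (167 and 109) without the filter on dim probes and 211 (124 upward) with the mean of a gene's probes, against 135 (76 and 59) as reported. Of the retinoic acid genes 0 were called in those 3 settings and with the separate-channel model (5, 4, 4 and 4 at an unadjusted p under 0.05). With scaling 3 were called (Cyp26b1, Aldh1a2 and Aldh1a3), and without the dim filter 2 (Cyp26b1 and Aldh1a3). Cyp26b1 was called in 8 of the 12 alternatives, at an adjusted p = 0.0497 with offset 0, and over the 12 its adjusted p ranged from 0.0131 to 0.452. The causes were not tested. Counts chosen after seeing the data were those of other pathway genes called, 0 in the same 4 settings and with the strict filter, which leaves out Ttr, and 2 with scaling (Ttr and Ret), and of retinoic acid genes 1.5-fold apart on both arrays, 1 with scaling and 3 with offset 0, processed signals and the series value table, where Cyp26a1 joined. On a single array no test could be run. No paired analysis was possible because each ratio already pairs the 2 extracts of 1 array. Among the 10 genes Cyp26a1 had the widest range, and its lowest ratio came with processed signals and the series value table.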

Other observations

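In the 4 gene families of the enzymes and binding proteins, 3 of the 78 other genes tested (3.85%) were at least 1.5-fold apart on both arrays, against 1.37% of all genes. Of 19 Aldh genes tested, which include aldehyde dehydrogenases of amino acid and lipid metabolism, 0 passed limma's test and only Aldh1a3 was at least 1.5-fold apart on both arrays. Apart from the retinoic acid genes they lay between -0.24 (Aldh6a1) and 0.43 (Aldh3b1) on the log2 scale. Of 41 cytochrome P450 genes 1 passed the test, Cyp26b1, and Cyp39a1, an oxysterol hydroxylase, was the 1 other gene past 1.5-fold on both arrays. Cyp39a1 had 548 and 595 in Tbx2-GOF ureters and 1038 and 918 in control ureters, and a log2 ratio of -0.77 ± 0.21 (SD, n = 2; adjusted p = 0.0703). Of 17 Rdh and Dhrs genes 0 passed, and Dhrs7c, a dehydrogenase of skeletal muscle, was the 1 past 1.5-fold, at -1.35 and -0.65 on the arrays. The Tbx2-GOF channel was above background for Dhrs7c on 1 of 2 arrays, and the skeletal muscle list was also lower, with medians of -2.13 and -1.03. Among 10 genes of small lipid-binding proteins, Fabp7, expressed in glial precursors, rose by 1.57 ± 0.25 (adjusted p = 0.0190), beside the neural crest and Schwann list to which it belongs. These families were picked by symbol after the members' values were seen.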
